A study of Mus musculus with 6 samples.

Results

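The VPS genes, named for the vacuolar protein sorting mutants of yeast, encode subunits of the complexes that sort membrane proteins in endosomes. The members were all protein-coding rows of the deposited expression table whose symbol is Vps, a number and at most a letter from a to d, which gave 31 of 53465 genes. No measured value enters that rule, but the family was picked with earlier results of the same comparison known, so its counts are a description. RNA sequencing of poly-A RNA was done on bone marrow cells of wild-type mice that were sorted as long-term haematopoietic stem cells (lineage-negative, Sca-1+, c-Kit+, Flk2-, CD34-). The mice had received 5.0 Gy of total body irradiation and then the histidine-containing dipeptide carnosine (3 libraries), or saline (3 libraries). Both groups were irradiated, no unirradiated group was analysed here, and the sources used here do not give strain, age, carnosine dose or sampling time. No label says that replicate libraries stem from different animals, so the p-values rest on library-to-library spread that may be only technical.

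Endosomes receive proteins taken up from the cell surface and decide their fate. Retromer returns receptors to the trans-Golgi network or the surface, GARP and EARP tether the vesicles that arrive there or recycle, and ESCRT complexes bud ubiquitinated cargo into the endosome for destruction. CORVET and HOPS tether early and late endosomes and lysosomes before they fuse, and VPS13 proteins carry lipids between membranes. Cytokine receptors such as c-Kit, on which blood stem and progenitor cells depend, pass through this route after they bind ligand.

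Total counts per library ran from 12730837 to 13651553 with carnosine and from 12602067 to 16866534 with saline, and the VPS genes took 0.224% to 0.227% and 0.204% to 0.21% of them. Of the 4 genes of the sort gate, Kit, at 378 ± 4.11 CPM (counts scaled to library size with edgeR's TMM factors) with carnosine and 329.6 ± 10.2 CPM with saline (SD, n = 3 each), was higher and Flt3, the gene of Flk2, was lower. Transcripts of both genes that the gate selects against, Flt3 and Cd34, were at 177 to 182 and 298 to 306 CPM with carnosine and 202 to 219 and 308 to 346 CPM with saline. Ly6a, the gene of Sca-1, was at 22.9 to 39.2 CPM with carnosine and 24.8 to 39.6 CPM with saline, and was not called. These are RNA levels, and they do not give the surface protein that the gate sorts on. The label therefore only names the gate here. Marker lists of other cells also moved: 5 of 9 neutrophil and myeloid progenitor genes were higher and 3 lower (summed level 7456 to 7698 CPM with carnosine, 3659 to 3684 CPM with saline), and 5 of 6 megakaryocyte genes were lower (139.2 to 146.2 and 341.5 to 367.7 CPM). Among 9 B and plasma cell genes 2 were higher and 2 lower (2624 to 2900 and 2159 to 2196 CPM), and of 7 erythroid genes 5 were higher and 1 lower (196.9 to 204.9 and 167.7 to 175.4 CPM). Of 5 monocyte genes 4 were lower (148.9 to 156.1 and 207.5 to 219.4 CPM), of 4 endothelial genes 3 were lower (90.2 to 95.5 and 109.8 to 121.6 CPM), and of 4 T cell genes 2 were higher (3.95 to 5.02 and 0.894 to 1.56 CPM). Of 7 stem cell genes 3 were lower (114.1 to 119.4 and 164 to 179.8 CPM), and both genes of dividing cells were higher (1804 to 1821 and 1599 to 1614 CPM). Of all tested genes 19.6% were higher and 19.8% lower, and the calls among the 9 B and plasma cell genes lie near these shares. The list sizes include Cd3d, Cd3g, Hoxb5 and Ppbp, which did not pass the filter on low counts and were not tested. The T cell genes had at most 26 counts in any library. Pecam1 (mean 88.2 CPM with carnosine, 98.6 CPM with saline) makes most of the endothelial sum. Cdh5 (1.06 and 7.16 CPM) and Kdr (1.47 and 7.79 CPM) differed by larger factors. Mpo (5404 and 2757 CPM) makes most of the neutrophil and myeloid sum, in which Ltf, Ngp and S100a9 were lower. No marker was at 0 in all 6 libraries, and the part of these shifts in the VPS values was not tested.

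Most VPS genes differed little between the groups, and the exception was Vps37b, an ESCRT-I subunit, which fell with carnosine to 0.422 times its saline level. In these bulk libraries, fewer cells of a type and less RNA per cell cannot be told apart. The next largest differences were rises of 1.39-fold in the retromer subunit gene Vps26a and 1.40-fold in Vps4b, which encodes an ATPase that takes ESCRT-III apart. Of 30 members that passed the filter on low counts, 11 rose, 2 fell and 17 did not pass the threshold, an adjusted p of 0.05 in edgeR's quasi-likelihood fit across all genes. The share called, 43.3%, lies near the 39.4% of all 15533 tested genes, so the number of calls does not set the family apart. By direction, 36.7% of the tested members rose, against 19.6% of all tested genes, and 6.67% fell, against 19.8%. The libraries of the groups did not overlap for 18 of 30 members (60%), beside 52.3% of all tested genes. The log2 fold change was above 0 in 25 of 30 members, with a median of 0.11, while the median of all tested genes was -1e-04. Differences were small in size, with a median absolute log2 fold change of 0.15 in the members and 0.23 in all tested genes. These medians are not matched on expression level. Among all tested genes 3038 rose and 3077 fell, and on the deposited FPKM values 3387 rose and 2156 fell (limma-trend), which moves the split toward rises, while 15 VPS genes rose and 2 fell on that scale. The 11 rises became 7 without saline replicate 2 or 3, 7 with DESeq2's Wald test and 3 when a change of at least 1.3-fold was also asked for.

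**Figure D1:**
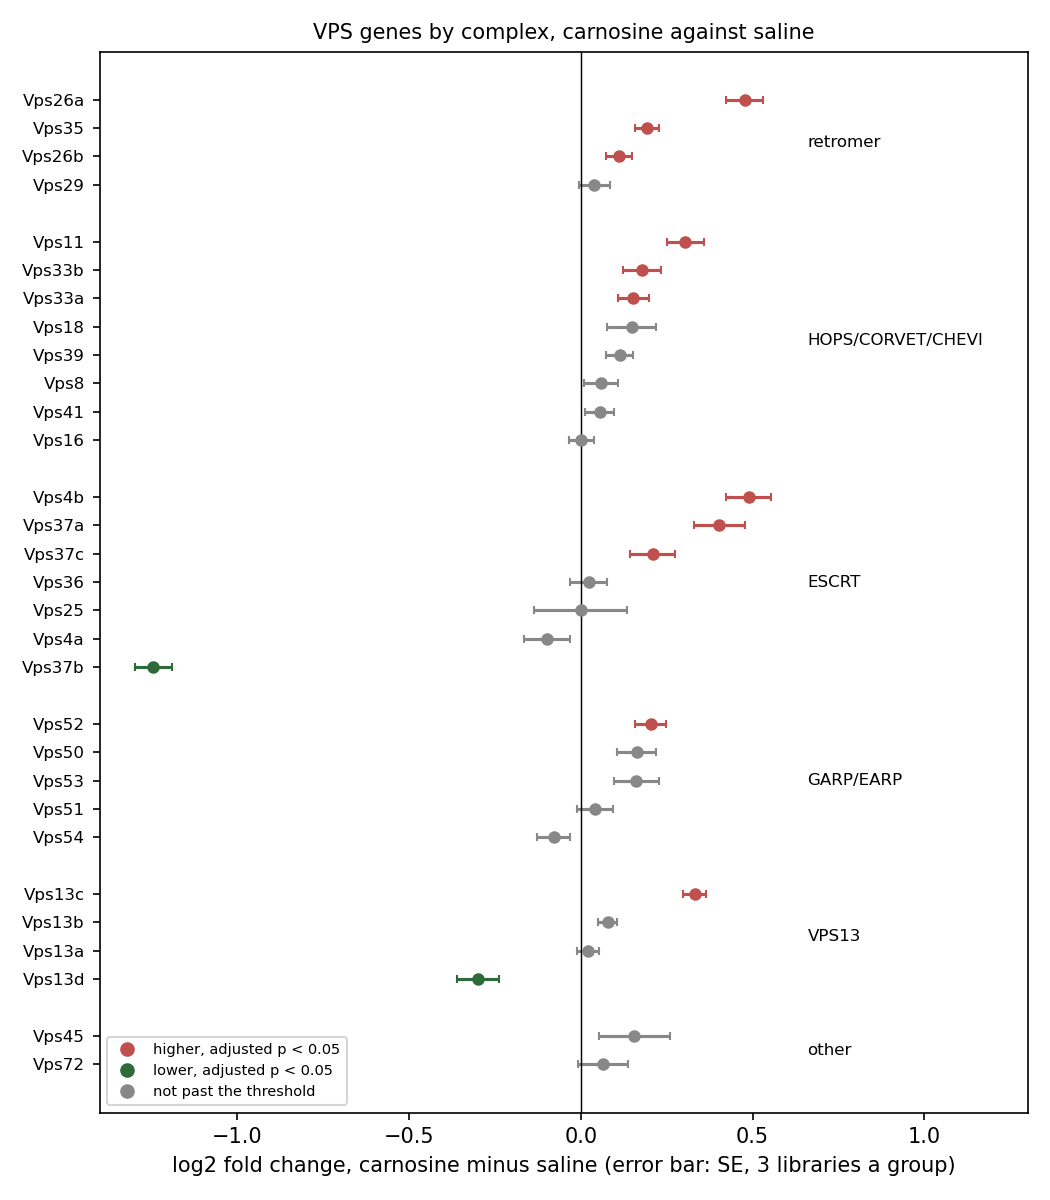
Log2 fold change of carnosine minus saline (x axis) for the 30 tested VPS genes, grouped by complex from top to bottom; points are estimates, bars the SE, and colours the call at an adjusted p of 0.05. Vps37b stands alone at -1.24, and all other members lie between -0.30 and 0.49.

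Of the 4 genes for the retromer trimer of VPS35, VPS29 and a VPS26 protein, 3 rose and 0 fell, beside 19.6% and 19.8% of all tested genes. Vps26a, 1 of the interchangeable VPS26 arms, had 76.3, 75.1 and 80.9 CPM in the carnosine libraries, against 52.7, 58.3 and 55.9 CPM in the saline libraries. Every carnosine library was above every saline library, and Vps26a rose (log2 fold change 0.48 ± 0.0546, SE; adjusted p = 0.00052). Vps35, the scaffold of the trimer, had 175.3, 175.8 and 173.5 CPM with carnosine, against 151.7, 159.9 and 147.4 CPM with saline, and rose too (0.19 ± 0.0352; adjusted p = 0.00463). Vps26b, the paralog of Vps26a, had 82.7, 84.05 and 86.9 CPM with carnosine and 77.6, 79.1 and 77.9 CPM with saline. Its groups did not overlap either, but its rise was small (0.11 ± 0.0372; adjusted p = 0.0483) and was lost in 10 of 15 alternative settings. Vps29, the small subunit that docks regulators onto VPS35, had 44.3 to 45.4 CPM with carnosine and 42.5 to 44.4 CPM with saline. Its groups overlapped and it did not pass the test (0.039, 95% interval -0.068 to 0.15; adjusted p = 0.535). Per kilobase of principal transcript, Vps26a and Vps26b were near equal in level. The share of Vps26a in their summed CPM per kilobase was 55.8 ± 0.527% with carnosine and 49.4 ± 1.06% with saline (SD, n = 3 each). On the deposited FPKM values the shares were 46.1 ± 0.53% and 39.9 ± 1.02%, so which of the pair is higher with carnosine depends on the length used, while with saline Vps26b has the higher mean on both scales.

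The gene of the third VPS26 protein, VPS26C, stands in the table as Dscr3 and so is not a member by name. VPS26C belongs to retriever, a retromer-like trimer that shares VPS29. Dscr3 had 30.6, 31.8 and 28 CPM with carnosine, against 22.5, 21.0 and 21.4 CPM with saline, and rose by 0.48 ± 0.0684 on the log2 scale (adjusted p = 0.00151). The gene of the third retriever subunit, VPS35L, listed as Vsp35l in the table, was at 74.4 ± 2.54 CPM with carnosine and 75.2 ± 2.21 CPM with saline (SD, n = 3 each), with overlapping libraries (adjusted p = 0.825).

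The tethering complexes CORVET and HOPS share a core of VPS11, VPS16, VPS18 and VPS33A. CORVET adds VPS8 and TGFBRAP1, HOPS adds VPS39 and VPS41, and VPS33B works in a separate pair with VIPAS39, called CHEVI. Of the 8 genes 3 rose and 0 fell, beside 19.6% and 19.8% of all tested genes, and all 8 log2 fold changes were above 0, from 0.002 to 0.30. Vps11 moved most, with 51.2, 56.4 and 55.1 CPM with carnosine and 45.0, 43.3 and 43.4 CPM with saline (0.30 ± 0.0539; adjusted p = 0.00396). The SM protein gene Vps33a, whose product clasps SNAREs for fusion, had 69.5, 74.2 and 69.7 CPM with carnosine and 64.7, 64.2 and 63.0 CPM with saline (0.15 ± 0.0446; adjusted p = 0.0302). Its paralog Vps33b had 35.7, 34.3 and 33.6 CPM with carnosine, against 30.4, 31.6 and 29.5 CPM with saline (0.18 ± 0.0554; adjusted p = 0.038). Neither pair of groups overlapped, but the calls of Vps33a and Vps33b were lost in 9 and 10 of 15 alternative settings. The share of Vps33a in the pair's CPM per kilobase was 55.6 ± 1.32% with carnosine and 56 ± 0.688% with saline (SD, n = 3 each), and the libraries overlapped.

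The other core genes did not pass the test. Vps18 was at 32.8 to 38.2 CPM with carnosine and 30.3 to 32.5 CPM with saline, without overlap (0.15; adjusted p = 0.144). Vps16 was at 94.8 to 99.0 and 93.8 to 98.4 CPM, with a log2 fold change of 0.002 (95% interval -0.085 to 0.089), and its sign turned in some alternative settings. Among the specific subunits, Vps39 was at 90.8 to 97.2 CPM with carnosine and 85.9 to 88.8 CPM with saline, again without overlap (0.11; adjusted p = 0.0572), and it passed without carnosine replicate 2 (0.14; adjusted p = 0.0479). Vps41 (78.2 to 82.5 and 75.9 to 80.3 CPM) and Vps8 (42.0 to 44.8 and 40.4 to 42.4 CPM) overlapped between the groups.

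Promoter sequence is shown for the members that rose most in retromer and ESCRT, Vps26a and Vps4b, and for a pair of core tether genes that carry the same motif but differ in their test result. RefSeq windows of 300 bases (250 before and 50 after the start of transcription, GRCm38.p6) were found for 21 of the 31 members. Capitals mark TCACGTGA, the core of the element bound by TFEB, a regulator of lysosomal genes, and its inner E-box CACGTG, searched with the ETS motif CCGGAAGT on both strands. The E-box lies inside every TCACGTGA match.
Vps26a (chr10:62486756-62487055, minus strand): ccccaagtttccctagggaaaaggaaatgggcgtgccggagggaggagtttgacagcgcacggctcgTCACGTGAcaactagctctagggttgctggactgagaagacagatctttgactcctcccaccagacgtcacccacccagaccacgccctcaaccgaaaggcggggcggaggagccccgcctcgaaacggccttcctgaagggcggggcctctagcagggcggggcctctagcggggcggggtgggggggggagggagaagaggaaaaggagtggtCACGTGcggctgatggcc
Vps33a (chr5:123572966-123573265, minus strand): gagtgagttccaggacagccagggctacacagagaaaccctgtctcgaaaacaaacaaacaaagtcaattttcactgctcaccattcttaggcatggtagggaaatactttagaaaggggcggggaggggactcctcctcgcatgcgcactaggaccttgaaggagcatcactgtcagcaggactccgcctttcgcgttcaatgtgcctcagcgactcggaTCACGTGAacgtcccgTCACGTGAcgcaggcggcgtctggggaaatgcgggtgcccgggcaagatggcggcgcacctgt
Vps16 (chr2:130424070-130424369, plus strand): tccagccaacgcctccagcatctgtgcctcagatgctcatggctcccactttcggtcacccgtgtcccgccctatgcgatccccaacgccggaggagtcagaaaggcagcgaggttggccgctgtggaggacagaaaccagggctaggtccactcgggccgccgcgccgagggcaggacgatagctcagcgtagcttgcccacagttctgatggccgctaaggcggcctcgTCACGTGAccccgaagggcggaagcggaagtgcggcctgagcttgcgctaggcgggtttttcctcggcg
Vps4b (chr1:106796676-106796975, minus strand): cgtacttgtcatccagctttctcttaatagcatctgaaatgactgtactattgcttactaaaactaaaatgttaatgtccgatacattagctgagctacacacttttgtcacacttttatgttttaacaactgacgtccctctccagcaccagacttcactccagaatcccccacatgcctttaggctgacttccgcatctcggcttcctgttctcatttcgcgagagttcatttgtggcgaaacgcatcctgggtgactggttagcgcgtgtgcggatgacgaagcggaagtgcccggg
Vps26a carries TCACGTGA at -183 from this start and, in the window of a second RefSeq start, again at -152. Vps33a carries it at -29 and -13, and Vps16 at -19. No other member with a window holds it, so 3 of 21 genes do, beside 1.13% of the 26994 genes with a promoter window. CACGTG is in 4 of 21 (8.09% of all), with Vps50 as the further gene, and CCGGAAGT is in 2 of 21, Vps52 and Vps53 (4.31% of all). The Vps4b window holds none of the 3 motifs. The VPS windows had a median GC content of 58.8%, against 52.7% for all windows. The shares were not matched on GC content or expression, and enrichment was not tested. A match describes letters only: of the 3 genes with TCACGTGA, Vps26a and Vps33a rose and Vps16 did not pass the test. Of the other called genes, Vps37b, Vps35, Vps11, Vps13c, Vps37a and Vps33b are without a window in the RefSeq table used here.

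Of 7 tested ESCRT genes 3 rose and 1 fell (19.6% and 19.8% of all tested genes), and they hold the largest VPS differences in both directions. ESCRT-I carries 1 of 4 interchangeable VPS37 subunits, and these moved apart. Vps37b (ENSMUSG00000066278, chromosome 5, 124004641 to 124032270, GRCm38) had 54.3, 52.8 and 59.3 CPM in the carnosine libraries, against 134, 126.1 and 133.8 CPM in the saline libraries. The groups lay far apart, and Vps37b fell by 1.24 on the log2 scale (SE 0.0537; adjusted p = 4.55e-06), which ranks 412 from the lowest among the 15533 tested genes. At least 2-fold falls were called for 3.53% of all tested genes. Vps37a, whose product also acts in autophagy, had 30.5, 30.6 and 32.9 CPM with carnosine, against 24.4, 24.9 and 21.6 CPM with saline, and rose (0.40 ± 0.0735; adjusted p = 0.00451). Vps37c had 32.9, 35.5 and 34.1 CPM with carnosine, against 31.5, 28 and 29 CPM with saline, with no overlap (0.21 ± 0.0655; adjusted p = 0.0393). The Vps37c call was lost in 8 of 15 alternative settings.

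Vps37d had 3, 2 and 2 counts in the carnosine libraries and 0 in each saline library. It did not pass the filter on low counts and was not tested. The 0 of 45178889 saline counts allows a level of up to 0.0664 CPM, from 3 counts over the group and for counting error only, and the 7 carnosine counts make 0.175 CPM. Per kilobase of principal transcript, Vps37b made up 55.4 ± 1.58% of the summed level of the 4 VPS37 genes with carnosine and 78 ± 0.814% with saline. Vps37c held 32 ± 1.66% and 16.4 ± 0.557%, and Vps37a 12.4 ± 0.0674% and 5.56 ± 0.519% (SD, n = 3 each). The summed level itself was 39.7 ± 1.52 CPM per kilobase with carnosine and 66.7 ± 2.22 with saline. Vps37b thus remained the most abundant VPS37 transcript in all 6 libraries, as it did on the deposited FPKM values (45 ± 1.61% and 69.9 ± 0.983%).

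**Figure D2:**
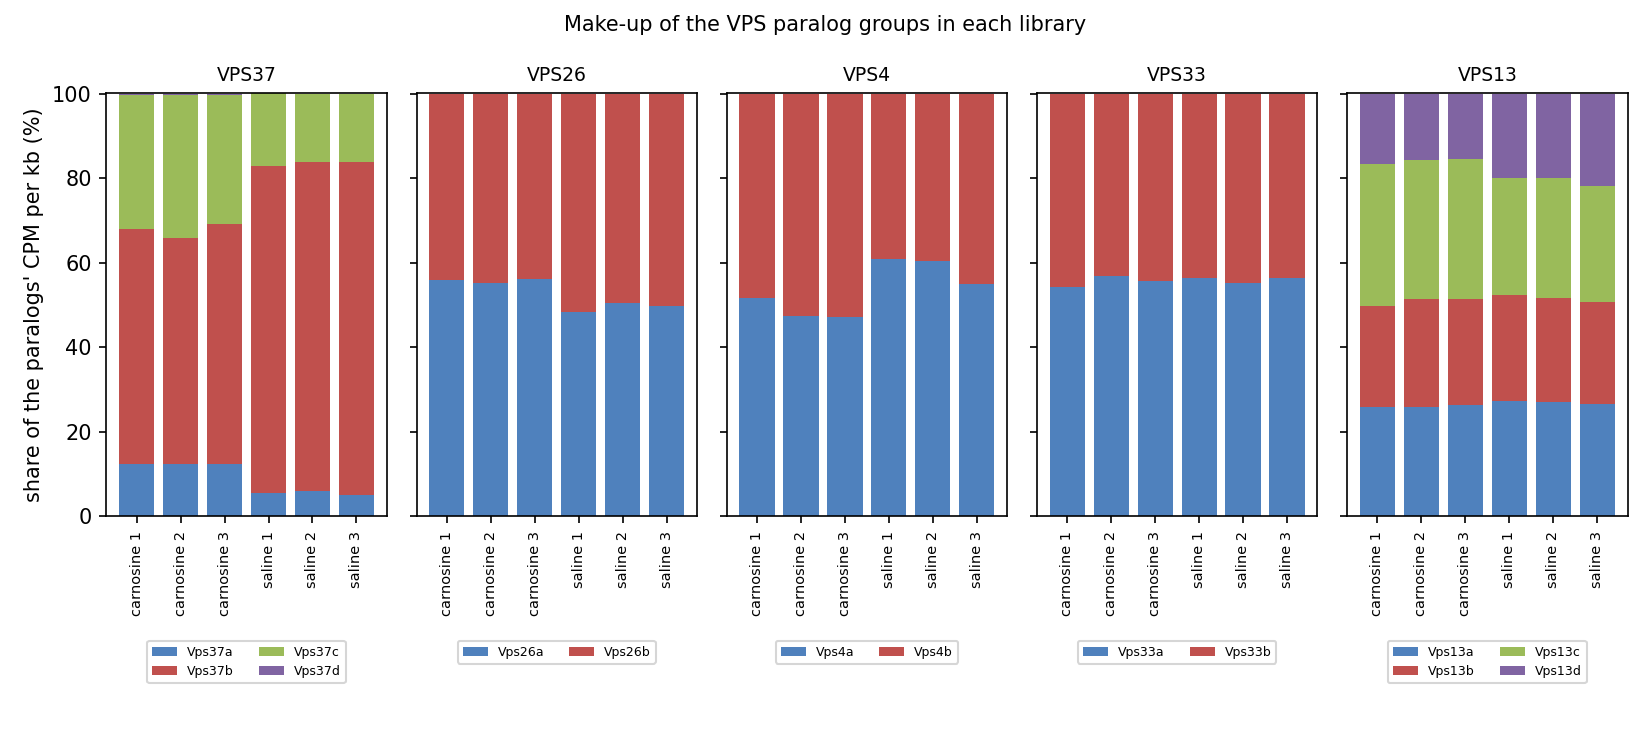
Share of each paralog in the summed CPM per kilobase of its group (y axis, %) in each of the 6 libraries, with carnosine libraries left of saline libraries. Vps37b fills 53.6% to 56.8% of the VPS37 bars with carnosine and 77.4% to 78.9% with saline, while the VPS33 bars differ little.

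The exons of Vps37b share 918 bases with Hip1r, which lies on the opposite strand. The library kit keeps strand, per the labels, but the sources used here do not say whether counting used it. Hip1r was at 80.1 ± 2.63 CPM with carnosine and 77.8 ± 0.626 CPM with saline (SD, n = 3 each; adjusted p = 0.453), so the fall of Vps37b was not seen in its neighbour.

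VPS4A and VPS4B are the ATPases that recycle ESCRT-III filaments. Vps4b had 98.1, 106.9 and 102.7 CPM with carnosine, against 68.4, 70.9 and 80.2 CPM with saline, and rose without overlap (0.49 ± 0.0664; adjusted p = 0.00116). Vps4a had 43.2 to 49.1 CPM with carnosine and 46.0 to 51.0 CPM with saline, which overlapped (-0.097, 95% interval -0.26 to 0.061; adjusted p = 0.295). Vps4b accounted for 51.3 ± 2.48% of the pair's CPM per kilobase with carnosine and 41.2 ± 3.31% with saline (SD, n = 3 each). On the deposited FPKM values its share was 40.4 ± 2.38% and 31.1 ± 2.95%, below that of Vps4a in both groups. A processed pseudogene, Gm4939, matches 1329 bases of Vps4b at 96.01% identity and may share reads with it. Gm4939 was at 4.44 ± 0.919 CPM with carnosine and 3.95 ± 0.347 CPM with saline (SD, n = 3 each). The ESCRT-II genes did not pass the test. Vps36, which binds ubiquitin and lipid, was at 82.4 to 85.3 CPM with carnosine and 76.7 to 86.4 CPM with saline, and Vps25, which hands the chain on to ESCRT-III, at 32.9 to 43.9 and 32.2 to 43.6 CPM. Vps25 had the widest interval of the tested members (95% interval -0.32 to 0.32), and it shares 1103 bases with Ramp2 on the same strand, so its counts are uncertain. VPS28 of ESCRT-I is not analysed here.

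The GARP and EARP tethers share VPS51, VPS52 and VPS53, with VPS54 added in GARP and VPS50 in EARP. Of the 5 genes 1 rose and 0 fell, and the 20% that rose is near the 19.6% of all tested genes. Vps52 had 92.2, 92.3 and 93.1 CPM with carnosine, against 75.9, 82.8 and 82.4 CPM with saline, and rose (0.20 ± 0.0443; adjusted p = 0.00972). Rps18, which shares 156 exon bases with Vps52 on the opposite strand, was lower with carnosine (133.1 ± 3.17 CPM, against 159.5 ± 6.57 CPM with saline; SD, n = 3 each). Vps53 was at 61.6 to 73.3 CPM with carnosine and 59.7 to 60.4 CPM with saline (0.16; adjusted p = 0.0929), and Vps50 at 45.1 to 49.95 and 41.3 to 42.8 CPM (0.16; adjusted p = 0.0574). Neither overlapped between the groups, and neither passed, though limma-trend on the FPKM values called both (adjusted p = 0.0487 for Vps53 and 0.0413 for Vps50) and Vps53 passed without carnosine replicate 1 (0.22; adjusted p = 0.0321). Vps51 (45.4 to 48.7 CPM with carnosine, 43.9 to 46.9 CPM with saline) and Vps54 (67.4 to 72.3 and 70.2 to 75.1 CPM) overlapped, and Vps54 was the subunit with a log2 fold change below 0 (-0.078). On the same strand, Vps51 shares 532 exon bases with Tm7sf2 and Vps53 shares 150 with Glod4, so their counts may be affected. Neither neighbour passed the test.

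The VPS13 proteins are long bridges that move lipids between organelles, and of their 4 genes 1 rose, 1 fell and 2 did not pass the test, beside 19.6% and 19.8% of all tested genes that rose and fell. Vps13c, whose product links the endoplasmic reticulum to late endosomes, had 162.8, 155.4 and 158.5 CPM with carnosine, against 123.2, 130 and 125.7 CPM with saline, and rose (0.33 ± 0.0335; adjusted p = 0.00029). Vps13d, tied to mitochondria and peroxisomes, had 111.9, 100.6 and 101.1 CPM with carnosine, against 121.8, 126.4 and 137.6 CPM with saline. The groups did not overlap, and Vps13d fell (-0.30 ± 0.0606; adjusted p = 0.00722), a call that was lost after correction for GC content and length (-0.17; adjusted p = 0.0805). Vps13b, a Golgi protein, was at 138.6 to 143.2 CPM with carnosine and 132.7 to 135 CPM with saline, without overlap (0.078; adjusted p = 0.0632). The same correction gave Vps13b a call (0.19; adjusted p = 0.002), as did limma-trend on the FPKM values (0.12; adjusted p = 0.0415). Vps13a was at 114.5 to 118.9 CPM with carnosine and 114.5 to 117.3 CPM with saline. Within the 4 genes, Vps13c took 33.2 ± 0.229% of the summed CPM per kilobase with carnosine and 27.8 ± 0.463% with saline, and Vps13d took 15.9 ± 0.74% and 20.6 ± 1.09% (SD, n = 3 each).

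**Figure D3:**
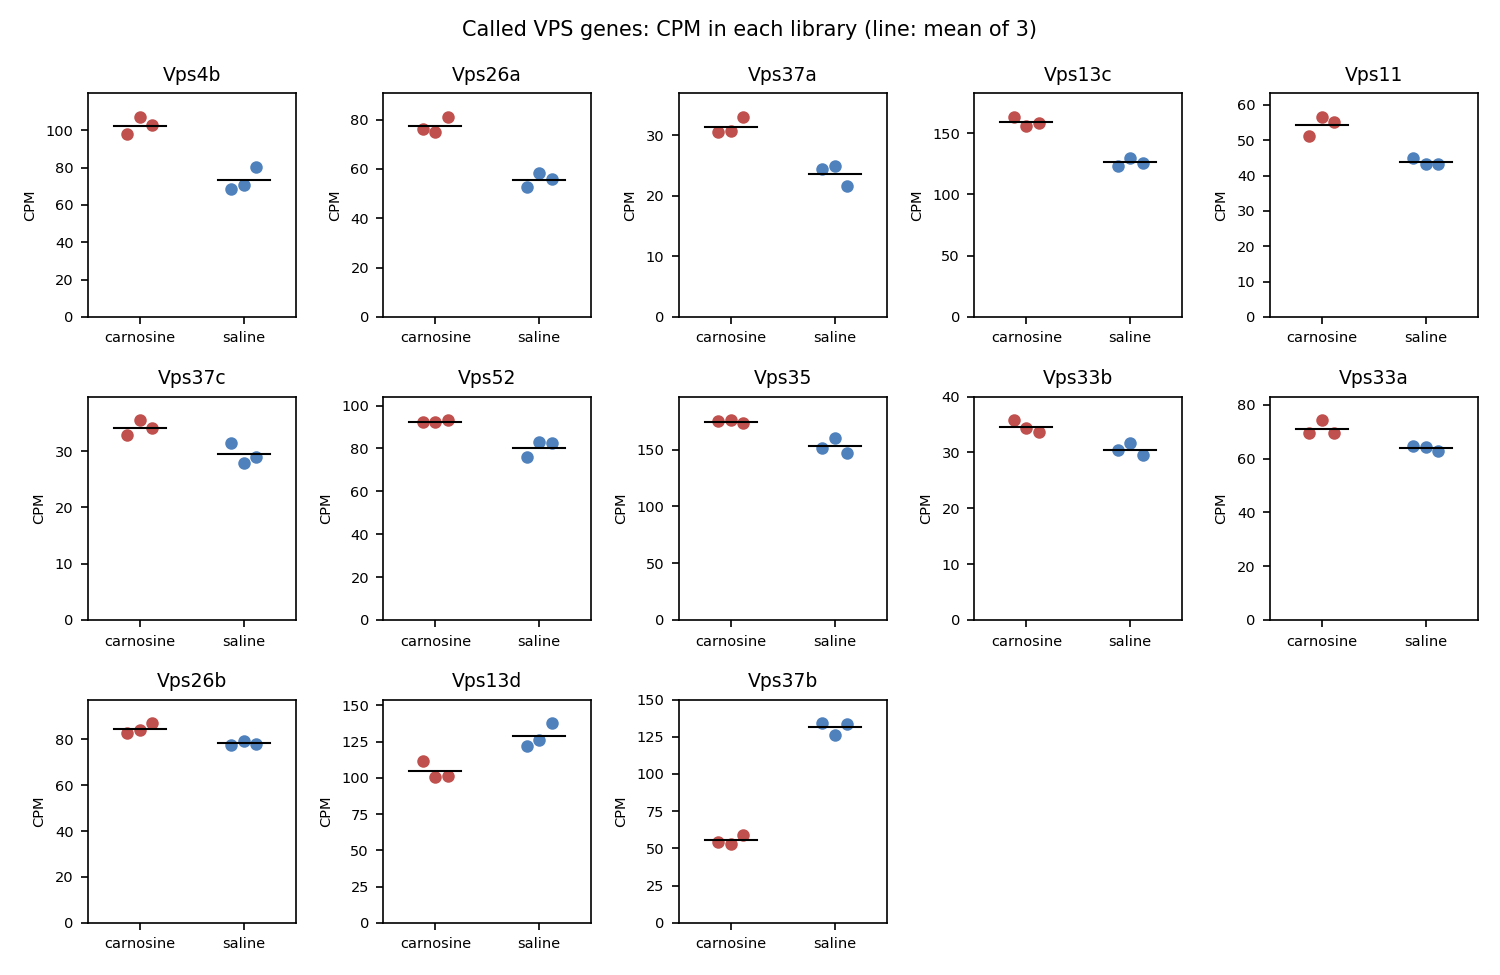
CPM (y axis, from 0) of the 13 called VPS genes in each library, carnosine left of saline in every panel; points are libraries and lines the mean of 3. The groups are apart in all 13 panels, which the choice of called genes favours, with the widest gap for Vps37b. Of all tested genes, 52.3% have groups without overlap.

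Vps45 and Vps72 belong to none of these complexes. VPS45 is the SM protein that guides SNARE fusion at early endosomes, and its loss in humans causes a severe neutropenia. Vps45 was at 18.6 to 20.5 CPM with carnosine and 15.4 to 20.0 CPM with saline, which overlapped (0.16, 95% interval -0.088 to 0.40; adjusted p = 0.277). Vps72 shares only the name: in mammals its product is a nuclear subunit that helps deposit the histone variant H2A.Z. It was at 64.6 to 73.1 CPM with carnosine and 59.9 to 70.2 CPM with saline, and also overlapped (adjusted p = 0.527).

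The deposited FPKM values divide each count by a length that exceeds the principal transcript for most members (3.44 times for Vps29 and 3.66 times for Vps25, but 0.898 times for Vps37c), so levels were set side by side per kilobase of the GENCODE principal transcript. On that scale of level, Vps35 was highest with carnosine, at 50.3 ± 0.355 CPM per kilobase, followed by Vps72 at 47 ± 2.95. With saline the highest were Vps37b at 52.1 ± 1.79, Vps72 at 45 ± 3.57 and Vps35 at 44 ± 1.83 CPM per kilobase (SD, n = 3 each). Vps37b was 12th of 31 with carnosine. Apart from Vps37d, the lowest was Vps37a, at 4.91 ± 0.212 CPM per kilobase with carnosine and 3.71 ± 0.281 with saline. Retromer subunits were unequal: Vps29 stood at 16.5 ± 0.213 with carnosine and 16 ± 0.354 with saline, below Vps35 in both groups. Of the 30 neighbouring pairs in the saline order, 19 had overlapping libraries, so most adjacent ranks cannot be told apart. The ranks also rest on the length used: by deposited FPKM, Vps37b ranked 5 with carnosine and 1 with saline, Vps37a ranked 23 and 27, and the lowest tested gene was Vps13d with carnosine and Vps50 with saline.

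**Figure D4:**
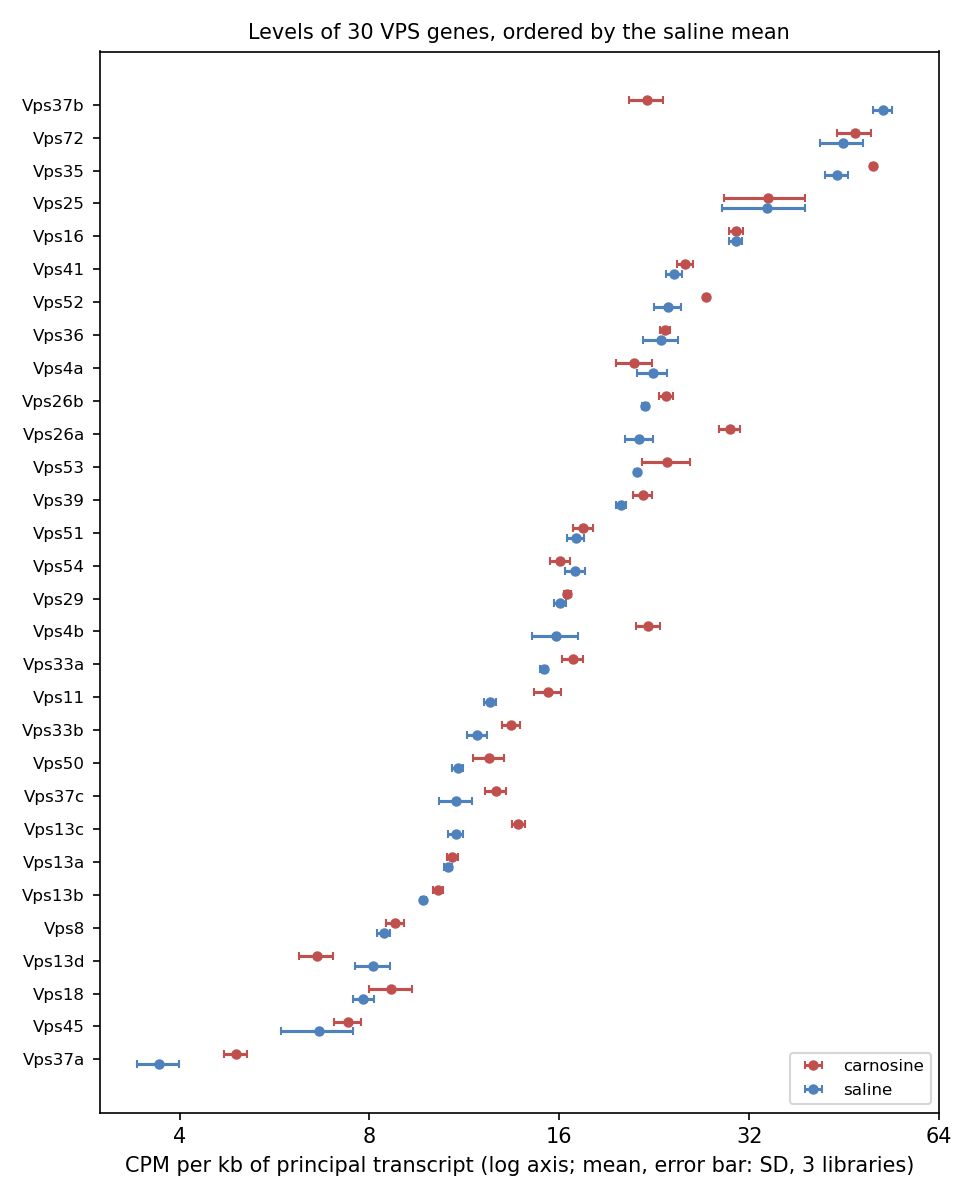
Mean CPM per kilobase of principal transcript (x axis, log scale) of 30 VPS genes, with carnosine above saline in each row and SD of 3 libraries as bars; Vps37d is left out because it has 0 counts with saline. Rows follow the saline level, from Vps37b at 52.1 down to Vps37a at 3.71.

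Partner genes that work with the VPS proteins under other names were called about as often in both directions, and 30.8% were called in all, below the 39.4% of all tested genes. Of 92 such genes in 7 lists 91 were tested, and 15 rose and 13 fell (16.5% and 14.3%, beside 19.6% and 19.8% of all tested genes), with a median log2 fold change of 0.028. On the deposited FPKM values 24 rose and 8 fell, DESeq2's Wald test called 6 lower, and 7 were lower without saline replicate 2. Among 13 retromer partners 4 rose and 2 fell. The sorting nexin Snx2 (116 ± 0.672 CPM with carnosine, 98.6 ± 1.15 CPM with saline) and the cargo adaptor Snx27 (68.5 ± 3.32 and 55.1 ± 2.96 CPM) rose. Another sorting nexin, Snx5, fell (-0.11 ± 0.0324 on the log2 scale). In the actin-nucleating WASH complex, which retromer recruits, Washc2 (0.21 ± 0.046) and Washc4 (0.16 ± 0.0423) rose and Washc1 fell (-0.18 ± 0.0432). Washc3 and Washc5 did not pass the test. Of 15 retriever partners 3 rose, with Commd5 (0.71 ± 0.138), Commd8 (0.33 ± 0.0726) and Ccdc93 (0.21 ± 0.0431), and 2 fell, among them Commd10 (-0.33 ± 0.0845).

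Among 17 tested HOPS and CORVET partners 1 rose and 3 fell (5.88% and 17.6%, beside 19.6% and 19.8% of all tested genes). The early endosome GTPase Rab5a fell to 57 ± 2.44 CPM with carnosine, against 85.1 ± 1.14 CPM with saline (adjusted p = 8.61e-05), while its paralog Rab5b rose (40.3 ± 1.121 and 33.5 ± 0.331 CPM; adjusted p = 0.00473). The lysosomal GTPases Arl8a (-0.36 ± 0.0912) and Arl8b (-0.11 ± 0.0292) fell. Of 22 ESCRT partners 1 rose and 4 fell (4.55% and 18.2%), so the falls lie near the 19.8% of all tested genes. Mvb12b, another ESCRT-I subunit, fell to 77.2 ± 0.361 CPM with carnosine, against 109.9 ± 2.48 CPM with saline (SD, n = 3 each; adjusted p = 3.9e-05). The other ESCRT-I genes of the partner list, named here after their values were seen, did not pass in edgeR. Tsg101 had a log2 fold change of -0.088 (adjusted p = 0.41), Ubap1 one of -0.15 (adjusted p = 0.398) and Mvb12a one of -0.0039 (adjusted p = 0.965). The ESCRT-III subunit gene Chmp4b (-0.18 ± 0.0323) and the ESCRT adaptor Ptpn23 (-0.17 ± 0.0428) fell, and the ESCRT-0 gene Stam2 rose (0.24 ± 0.0679).

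None of 10 GARP partners passed the test in edgeR, beside 39.4% of all tested genes. The smallest adjusted p-values there were 0.0763 for Eipr1, 0.118 for Vti1a, 0.193 for Rab6a and 0.391 for Stx6. At an unadjusted p under 0.05 there was 1, DESeq2 called 0, and limma-trend on the FPKM values called 2. In the VPS34 lipid kinase complex 2 of 7 rose and 1 fell (28.6% and 14.3%, beside 19.6% and 19.8% of all tested genes). The kinase partner Pik3r4, known as VPS15 (0.20 ± 0.0584), and Nrbf2 (0.31 ± 0.0795) rose, and Uvrag fell (-0.29 ± 0.0501). The kinase gene Pik3c3 itself did not pass in edgeR (0.13, adjusted p = 0.115). Of 7 cargo and lysosomal membrane proteins 4 rose and 1 fell (57.1% and 14.3%, beside 19.6% and 19.8% of all tested genes). The retromer cargo receptors Sorl1 (109.4 ± 2.01 CPM with carnosine, 71.8 ± 0.964 CPM with saline) and Sort1 (120.1 ± 4.91 and 92.8 ± 1.32 CPM) rose, as did the transferrin receptor Tfrc (353.5 ± 7.75 and 300.8 ± 6.09 CPM). The lysosomal membrane protein gene Lamp1 fell to 235.4 ± 2.44 CPM with carnosine, against 264.8 ± 6.6 CPM with saline (SD, n = 3 each; adjusted p = 0.00245).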

How the data were processed

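RNA sequencing was done on 3 carnosine and 3 saline libraries. The submitters' processing notes name CASAVA 1.8, HISAT2, StringTie, edgeR and the GRCm38 build, without settings. The authors deposited whole-number read counts per gene, which were used as they are, and deposited FPKM values, whose implied gene length was constant within 1% across libraries for 100% of the 10713 genes averaging 100 counts or more. The sources used here do not say whether counting used strand. Exons of Vps13b (Cox6c), Vps16 (Pced1a), Vps29 (Fam216a), Vps35 (Orc6), Vps37a (Mtmr7) and Vps4a (Pdf) also overlap a gene on the opposite strand.

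Counts were fitted with edgeR 4.0.16 in R 4.3.3 (filterByExpr, TMM scaling, quasi-likelihood test of carnosine against saline, no covariate), and p-values were adjusted by Benjamini-Hochberg over all 15533 genes kept, with 0.05 as the threshold. The SE is the log2 fold change divided by the root of F. CPM are on the TMM scale, and levels between genes use CPM per kilobase of the GENCODE M21 principal transcript. Alternatives were DESeq2 1.42.0, limma 3.58.1 (voom, and trend on log2(FPKM + 1), where fold changes of low genes are understated), other scalings and filters, each library left out, a block on replicate number, and a GC and length correction chosen after seeing the data. The fits were tested on simulated data. Named were all VPS genes and up to 4 genes of each partner list with the smallest p-values. Snx5, Washc3, Washc4, Washc5, Tsg101, Ubap1, Mvb12a, Chmp1b and Chmp3 were added after their values were seen. The members, complexes, lists and motifs were chosen with earlier results of these data known. Older symbols were matched through the reference tables. Intervals cover 95%, and counting floors cover counting error only.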

Additional observations from a re-analysis of the deposited data

How the results depend on the processing

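Of the 13 called VPS genes, 8 passed in the same direction in all 15 alternatives (Vps11, Vps13c, Vps26a, Vps35, Vps37a, Vps37b, Vps4b and Vps52), 5 lost the call in some, and 0 reversed. Vps26b, Vps33a, Vps33b and Vps37c were lost with no filter, with DESeq2's Wald test, under the replicate block and in most fits with a library left out. The GC and length correction lost Vps13d, Vps26b, Vps33a and Vps33b. Of the 17 not called, 4 passed in some alternative: Vps39 (upper quartile scaling, FPKM, without carnosine replicate 2), Vps13b (FPKM, GC and length correction), Vps50 (FPKM) and Vps53 (FPKM, without carnosine replicate 1). VPS rises (11) became 7 with no filter, 7 with DESeq2's Wald test and 7 under the replicate block. They became 9 with the GC and length correction, 3 at a change of at least 1.3-fold, and 7 to 8 with a library left out. VPS falls (2) became 1 with the GC and length correction, 1 at 1.3-fold and stayed at 2 with any library left out. Partner rises (15) became 24 on FPKM, 2 at 1.3-fold and 11 to 14 with a library left out, and partner falls (13) became 6 with DESeq2's Wald test, 8 on FPKM, 2 at 1.3-fold and 7 to 12. Over all genes, 6115 calls became 3333 at 1.3-fold and 5082 to 5317 with a library left out. Except as given, the causes were not tested; a fold minimum or fewer libraries leaves fewer calls by construction.

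Reversals, 16 in all, came in 5 genes that were not called. Log2 fold changes of Vps16 were -0.00504 with no filter, -0.00569 with the 5 CPM filter, -0.0367 with the GC and length correction and -0.0182 to 0.0159 with a library left out. Vps25 gave 0.00367 with upper quartile scaling, 0.0552 on FPKM, 0.000475 under the block, 0.0115 with the correction and -0.119 to 0.119 with a library left out. With the correction Vps29 gave -0.0326, Vps41 -0.00645 and Vps36 -0.0263, and Vps36 ranged from -0.0285 to 0.0536 with a library left out. The replicate block called 5231 genes. Same-numbered libraries of the groups correlated at -0.011, 0.028 and 0.029, and not every library correlated best with its own number. Values this near 0, from deviations within groups of 3 libraries, cannot decide whether the numbers pair the libraries. The filter on low counts kept Vps37d alone among the members out of the test, at 7 counts.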

Other observations

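A pair of ESCRT-III subunit genes varied widely between libraries of a group; they were picked after their values were seen. Chmp1b had 64.7, 61.2 and 2.78 CPM with carnosine, against 90.5, 71.8 and 91.7 CPM with saline, and the low carnosine library held 36 counts of it. Chmp3 had 26.6, 56.6 and 27.3 CPM with carnosine, against 32.9, 56.5 and 60.8 CPM with saline. Neither passed the test, with an adjusted p of 0.353 for each in edgeR.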
